A study of Mus musculus with 6 samples.

Results

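The miR-322/miR-503 cluster is a run of 7 miRNA hairpin genes on the mouse X chromosome, and 10 of its mature miRNAs are described here: miR-322-5p, miR-322-3p, miR-503-5p, miR-503-3p, miR-351-5p, miR-542-5p, miR-542-3p, miR-450a-5p, miR-450b-5p and miR-450b-3p. They were picked by name, with earlier results of these data known, from a table of raw counts for 1960 mature mouse miRNAs. All 10 were listed, and all 10 were among the 297 miRNAs with enough counts to be tested, out of 806 with a count in any library. Small RNA was sequenced from the immune cell fraction of livers of wildtype female C57BL/6J mice aged 10 weeks, with 2 libraries in each of 3 groups. The Vehicle group had no disease and was given only the solvent, DMSO in corn oil. In ConA+Vehicle, hepatitis was induced through the retro-orbital sinus with 12.5 mg/kg of ConA (concanavalin A, a lectin from jack beans and a strong T cell mitogen), and the controls' solvent was DMSO in corn oil. ConA+D8THC had this ConA dose together with the cannabinoid D8THC (delta-8-tetrahydrocannabinol), dosed intraperitoneally at 20 mg/kg in a volume of 100 µL, once 15 to 18 h ahead of ConA and once 30 min after it. The labels call the 2 libraries of a group biological replicates. The sources used here do not give how many mice stand behind a library or the hour of collection. The cells came from a whole-liver dissociation, and no sort for a cell type is described.

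A miRNA hairpin is cut by Dicer into a duplex of a 5p and a 3p arm, of which usually one is kept in an Argonaute protein as the guide and the other is mostly discarded. The guide finds its targets mainly through its seed, bases 2 to 8. Guides of the cluster are known as brakes on the cell cycle: miR-322-5p, the mouse counterpart of human miR-424-5p, shares its seed with the miR-15/16 family, which lowers D-type and E-type cyclins and the phosphatase Cdc25a, and miR-503-5p has a related seed and overlapping targets. The cluster is known from muscle differentiation, from fibroblasts and from endothelial cells, where miR-322-5p and its human counterpart respond to low oxygen.

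The sequences show which seeds the members carry, and they are printed 5′ to 3′ with the seed in capitals (RefSeq, GRCm38.p6, all on the minus strand of chromosome X). The guides nearest the start of the cluster come first, and then those of the distal hairpins.
miR-322-5p: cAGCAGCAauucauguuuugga
miR-503-5p: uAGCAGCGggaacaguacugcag
miR-351-5p: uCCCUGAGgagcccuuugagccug
miR-542-3p: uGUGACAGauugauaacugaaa
miR-450a-5p: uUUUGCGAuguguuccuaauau
miR-450b-5p: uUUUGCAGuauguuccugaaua
The opposite arms, shown because several of them moved apart from the guides above, carry seeds of their own.
miR-322-3p: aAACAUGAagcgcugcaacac
miR-503-3p: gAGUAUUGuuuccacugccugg
miR-542-5p: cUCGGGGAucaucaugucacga
miR-450b-3p: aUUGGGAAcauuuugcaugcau
No seed was shared between any 2 of the 10. The seed of miR-322-5p was found in 9 other mature mouse miRNAs of the RefSeq table, 5 of them tested, and that of miR-351-5p in 4 others, 2 of them tested (miR-125a-5p and miR-125b-5p). None of the other 8 members had a tested miRNA with its seed. miR-450a-5p is encoded by both Mir450-1 and Mir450-2, so that its counts cannot be assigned to either hairpin. miR-450b-3p is identical to miR-450a-1-3p over its first 18 bases, and reads that end within those bases could belong to either.

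In transcription order the 7 hairpins are Mir322 (chrX:53054255-53054349), Mir503 (chrX:53053984-53054054), Mir351 (chrX:53053255-53053353), Mir542 (chrX:53049403-53049487), Mir450-2 (chrX:53048299-53048367), Mir450-1 (chrX:53048154-53048244) and Mir450b (chrX:53047997-53048078), by GENCODE M21 in build mm10. They span 6353 bp. Mir503 lies 200 bp after Mir322 and Mir351 630 bp after Mir503, a gap of 3767 bp follows, and the last 3 hairpins are 54 and 75 bp apart. RefSeq places Mir322, Mir503 and Mir351 within the long non-coding RNA gene C430049B03Rik (chrX:53053112-53057190). GENCODE M21 ends that gene before Mir322 and puts no other gene over any of the 7 hairpins.

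Library totals ran from 322764 counts in ConA+Vehicle replicate 2 to 1172389 in Vehicle replicate 2, so that 3 counts, the limit that a count of 0 allows, were worth 2.63 to 9.93 CPM (counts scaled to library size with TMM factors). Markers of other liver cells were abundant in the immune cell preparation. The 2 arms of miR-126a, the defining endothelial miRNA, took a share of counts of 33.4% ± 1.04 (SD, n = 2) in Vehicle, 13.0% ± 0.310 with ConA+Vehicle and 23.7% ± 4.18 with ConA+D8THC. The 6 hepatocyte miRNAs took 11.1% ± 3.91, 18.4% ± 1.90 and 6.17% ± 1.39, and the 2 arms of the pan-haematopoietic miR-142a 4.92% ± 3.38, 9.66% ± 0.886 and 9.45% ± 2.45. Smaller shares went to 4 myeloid miRNAs (0.356%, 2.84% and 1.83%), 4 lymphocyte miRNAs (0.690%, 0.996% and 0.845%), 6 stellate cell and fibroblast miRNAs (1.30%, 1.02% and 1.00%), 5 of bile duct epithelium (0.449%, 0.455% and 0.433%) and 4 erythroid miRNAs (0.0732%, 0.133% and 0.0498%), in the same order. No marker of these lists was at 0 in all libraries. In such bulk libraries fewer cells of a type and less of a miRNA per cell cannot be told apart.

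The cluster was a minor part of every library. Its 10 members summed to 1699 and 2650 counts in the Vehicle libraries, 694 and 537 in ConA+Vehicle, and 2192 and 1767 in ConA+D8THC. As a share of all counts that was 0.225% and 0.226% in Vehicle, 0.182% (95% exact binomial interval 0.169% to 0.196%) and 0.166% (0.153% to 0.181%) in ConA+Vehicle, and 0.240% and 0.256% in ConA+D8THC. The summed level was 2334 ± 15.2 CPM in Vehicle, 1754 ± 33.2 with ConA+Vehicle and 2388 ± 178 with ConA+D8THC (SD, n = 2). Both ConA+Vehicle libraries lay below all 4 others, and the ranges of Vehicle and ConA+D8THC overlapped. A single value compared between groups of 2 libraries cannot go below an exact two-sided permutation p of 0.333, so sums are given without a test.

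**Figure D1:**
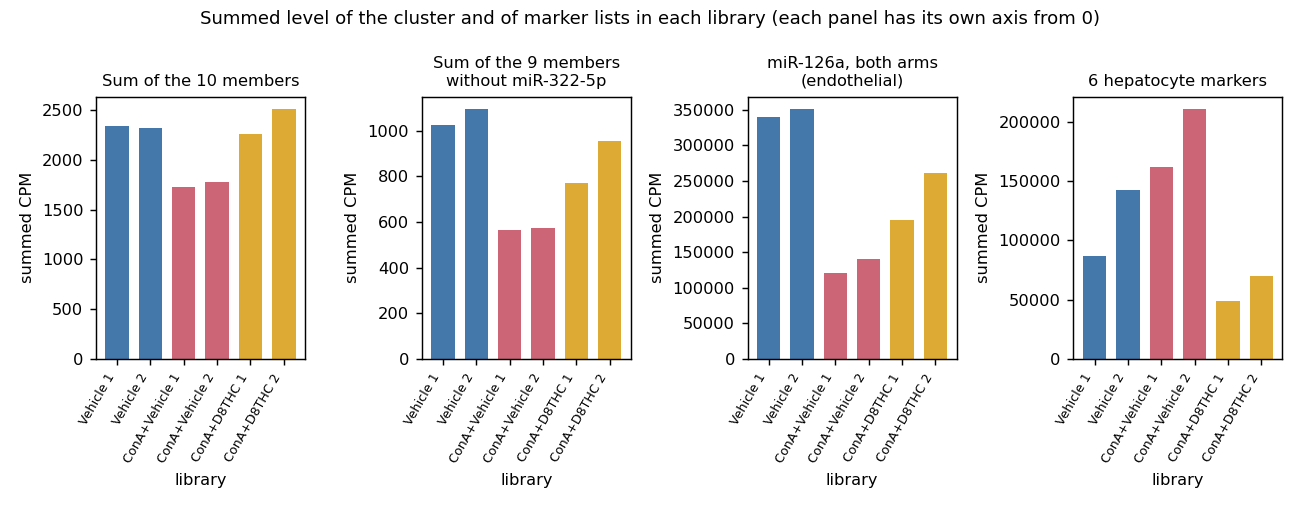
Summed CPM in each of the 6 libraries (x axis) for the 10 members, for the 9 members without miR-322-5p, for the 2 arms of the endothelial miR-126a and for 6 hepatocyte miRNAs; each panel has its own axis from 0. The ConA+Vehicle libraries are lowest for both sums of the cluster (1730 and 1777 CPM for the 10 members) and for miR-126a. They are highest for the hepatocyte sum, most of which is miR-122-5p.

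miR-322-5p alone made up 52.9% to 56.2% of the cluster's counts in Vehicle, 67.3% to 67.8% in ConA+Vehicle and 62.0% to 65.9% in ConA+D8THC. It was the 58th most abundant of the 297 tested miRNAs by mean CPM. Without it, the other 9 members summed to 1061 ± 48.2 CPM in Vehicle, 569 ± 4.66 with ConA+Vehicle and 863 ± 131 with ConA+D8THC, with no overlap between any 2 groups. The rarest members, miR-450a-5p, miR-450b-3p, miR-542-5p and miR-450b-5p, had means of 15.5 to 39.3 CPM over all libraries. miR-542-3p was the second most abundant member in each group. miR-503-5p was the sixth in Vehicle and the third in both ConA groups; in ConA+Vehicle it and miR-542-3p, at 169 ± 9.44 and 170.0 ± 21.7 CPM, did not differ beyond their spread, and in ConA+D8THC their libraries overlapped. Mature sequences here are 21 to 24 bases long, and CPM was not divided by length.

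**Figure D2:**
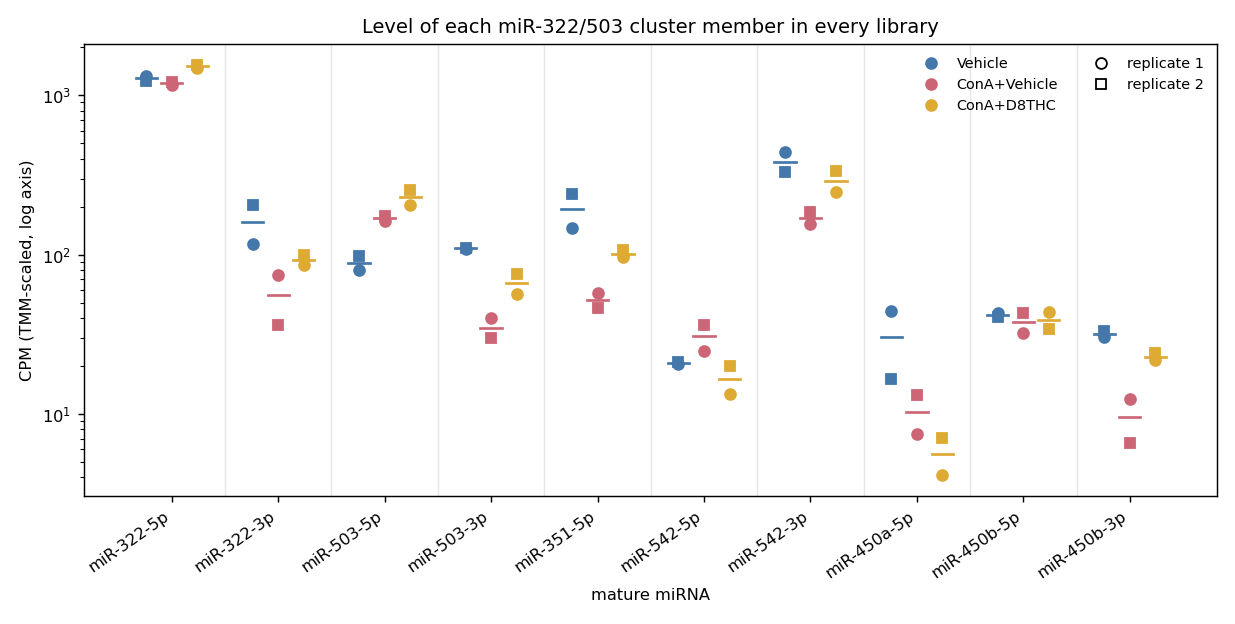
CPM on a log axis for each member (x axis) in every library; colour gives the group, marker shape the replicate and the short line the group mean. miR-322-5p is far above the other 9 members in all 6 libraries, and miR-503-5p is the member whose ConA libraries (162 to 255 CPM) all lie above Vehicle (80.0 and 98.2 CPM).

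The first comparison, of ConA+Vehicle with Vehicle, asked how the cluster stands in hepatitis. Of the 10 members, 5 fell (miR-322-3p, miR-503-3p, miR-351-5p, miR-542-3p and miR-450b-3p), 1 rose (miR-503-5p) and 4 were not called, by edgeR's quasi-likelihood test at an adjusted p under 0.05. Over all 297 tested miRNAs, 16.8% were called lower and 19.9% higher in this comparison. The members' median log2 fold change was -1.34, against 0.10 over all tested miRNAs. In 7 members both ConA+Vehicle libraries lay below both Vehicle libraries, and in 2 above, against 29.3% and 38% of all tested miRNAs. The 7 and the median include miR-450a-5p, which passed the count filter through Vehicle, the group where it is high. Neither is therefore a clean comparison with the background. The endothelial miR-126a arms also fell, with a median log2 fold change of -1.31 and a summed level of 121343 to 141037 CPM in ConA+Vehicle against 340155 to 351167 in Vehicle; their part in the cluster's changes was not tested. Other markers fell as well. Of the 5 tested stellate cell and fibroblast miRNAs 2 fell, miR-199a-3p (2.22-fold, adjusted p = 0.00391) and miR-199a-5p (2.26-fold, adjusted p = 0.00589), with a list median of log2 -1.15. The other 3, miR-214-3p (log2 -1.24), miR-145a-5p (-0.29) and miR-143-3p (0.42), were not called. The 4 myeloid miRNAs split: both arms of miR-223, known from neutrophils, rose (miR-223-3p by 8.12-fold), and both arms of miR-511, known from resident macrophages, fell (miR-511-3p by 8.55-fold, adjusted p = 0.000638, and miR-511-5p by 3.69-fold, adjusted p = 0.0472). Of the 6 hepatocyte miRNAs 4 rose, miR-122-5p was not called (adjusted p = 0.124) and miR-122-3p fell (2.28-fold, adjusted p = 0.0167). The part of these markers was not tested either. With the markers of endothelial cells and hepatocytes left out of the table, the same 6 members were called. That fit removes only the markers' own rows and so changes the scaling. Any counts of the cluster from those cells stay in, and their part was not tested.

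Among the proximal guides, miR-322-5p was at 1318 and 1228 CPM in the Vehicle libraries and at 1164 and 1205 in ConA+Vehicle. Both ConA+Vehicle libraries lay just below both Vehicle libraries, and the fold change (log2 -0.10 ± 0.20 SE, adjusted p = 0.752) was smaller than its error. miR-503-5p was at 80.0 and 98.2 CPM in Vehicle and at 162 and 175 in ConA+Vehicle. Both ConA+Vehicle libraries were above both Vehicle libraries, and the rise was 1.88-fold (log2 0.91 ± 0.30, adjusted p = 0.0363). miR-351-5p, a rodent miRNA with the seed of the miR-125 family, fell from 146 and 241 CPM to 57.3 and 46.3. At 3.72-fold lower it was the largest called change of the cluster (log2 -1.89 ± 0.38, adjusted p = 0.00308), and it was called in all 14 alternative fits.

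The opposite arms of the same hairpins went down. miR-322-3p was at 116 and 205 CPM in Vehicle and at 74.8 and 36.4 in ConA+Vehicle. The replicates of each group were far apart, but the groups did not overlap (2.84-fold lower, adjusted p = 0.0186). miR-503-3p, the opposite arm of the member that rose, fell from 109 and 110 CPM to 39.9 and 29.8. It was 3.11-fold lower (log2 -1.63 ± 0.37, adjusted p = 0.00587).

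In the distal hairpins, miR-542-3p, which is known to target the mitotic and anti-apoptotic protein survivin (Birc5), fell from 437 and 329 CPM to 155 and 185, 2.26-fold (adjusted p = 0.00839). Its opposite arm miR-542-5p was at 20.7 and 21.0 CPM in Vehicle and 24.9 and 36.4 in ConA+Vehicle, from 10 to 24 counts a library. That arm was not called (log2 0.53 ± 0.45). miR-450b-3p fell from 30.4 and 33.3 CPM to 12.5 and 6.62, on 5 and 2 counts in the ConA+Vehicle libraries (3.19-fold, adjusted p = 0.0264). Its partner miR-450b-5p stayed uncalled, at 42.8 and 40.3 CPM in Vehicle and 32.4 and 43.0 in ConA+Vehicle, where the groups overlapped. miR-450a-5p was at 44.2 and 16.7 CPM in Vehicle and 7.48 and 13.2 in ConA+Vehicle and was not called (log2 -1.52 ± 0.69, adjusted p = 0.112), although it was without Vehicle replicate 2 (log2 -2.11) and without ConA+D8THC replicate 1. Without Vehicle replicate 1 its log2 fold change was -0.74 (adjusted p from 0.00823 to 0.495 over 13 alternatives). With at most 5 counts in any of the 4 ConA libraries it passed the count filter through Vehicle.

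Apart from that of miR-351-5p, each of these calls ended in at least 1 alternative. Without ConA+Vehicle replicate 1, 3 members were called, and without ConA+Vehicle replicate 2, 2 members, all of them among the 6. The call of miR-503-5p ended in 7 of 14 alternatives (adjusted p from 0.0108 to 0.171), among them DESeq2 and the fits without Vehicle replicate 1 or either ConA+Vehicle replicate; its direction held in all 14. That of miR-322-3p ended without Vehicle replicate 2 (log2 -1.02) or ConA+Vehicle replicate 2 (adjusted p from 0.000325 to 0.0997), and without ConA+Vehicle replicate 1 its log2 fold change was -2.13. The call of miR-450b-3p ended without Vehicle replicate 2, without either ConA+Vehicle replicate and in DESeq2 (0.0116 to 0.188), that of miR-542-3p without ConA+Vehicle replicate 1 (0.000376 to 0.0725), and that of miR-503-3p without ConA+Vehicle replicate 2 (0.000232 to 0.0551).

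**Figure D3:**
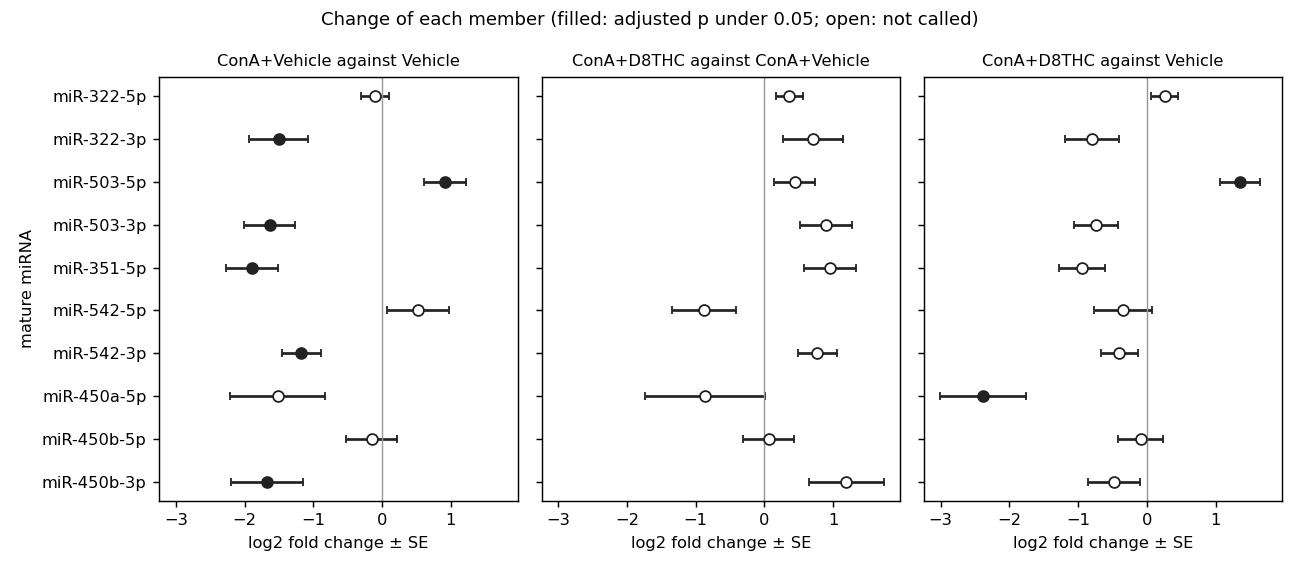
Log2 fold change with its SE (x axis) of each member (y axis) in the 3 comparisons, by edgeR; filled points have an adjusted p under 0.05. Against Vehicle, miR-503-5p is to the right of 0 with either ConA group while miR-503-3p is to the left, and with ConA+D8THC against ConA+Vehicle none of the 10 points is filled.

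The 2 arms of one hairpin come from one precursor, and their ratio was compared next. The Mir503 and Mir542 hairpins are shown with both arms in capitals, 5p first, because their arms parted most.
Mir503: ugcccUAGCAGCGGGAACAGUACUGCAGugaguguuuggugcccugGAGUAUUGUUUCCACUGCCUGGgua
Mir542: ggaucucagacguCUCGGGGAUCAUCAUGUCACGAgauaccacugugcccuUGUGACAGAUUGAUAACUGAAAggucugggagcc
Of the counts from both arms of miR-503, the 5p arm held 42.3% (95% exact binomial interval 33.9% to 51.1%) and 47.1% (40.6% to 53.6%) in the Vehicle libraries. It held 80.2% (69.9% to 88.3%) and 85.5% (74.2% to 93.1%) in ConA+Vehicle, and 78.3% (72.7% to 83.2%) and 77.2% (71.2% to 82.4%) in ConA+D8THC. In all 4 ConA libraries miR-503-5p was the more abundant arm, while both Vehicle intervals include equal shares of the arms. These intervals cover counting error only.

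In the other hairpins the arm with more counts was the same in all 6 libraries. For miR-322 the 5p arm held 91.9% and 85.7% in Vehicle, 94.0% and 97.1% in ConA+Vehicle, and 94.6% and 94.0% in ConA+D8THC. For miR-542 it held 4.52% and 6.02% in Vehicle, 13.9% and 16.4% in ConA+Vehicle, and 5.18% and 5.62% in ConA+D8THC. For miR-450b it held 58.5% and 54.8%, then 72.2% and 86.7%, then 66.7% and 58.5%, in the same order. In each of these 4 hairpins both ConA+Vehicle libraries had a higher 5p share than both Vehicle libraries. The share of all hairpins so placed was not computed, so this is a description only. For miR-351 the groups overlapped, at 95.5% and 99.3% in Vehicle and 100% and 93.3% in ConA+Vehicle. Its 3p arm had at most 5 counts in any library and was not tested.

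**Figure D4:**
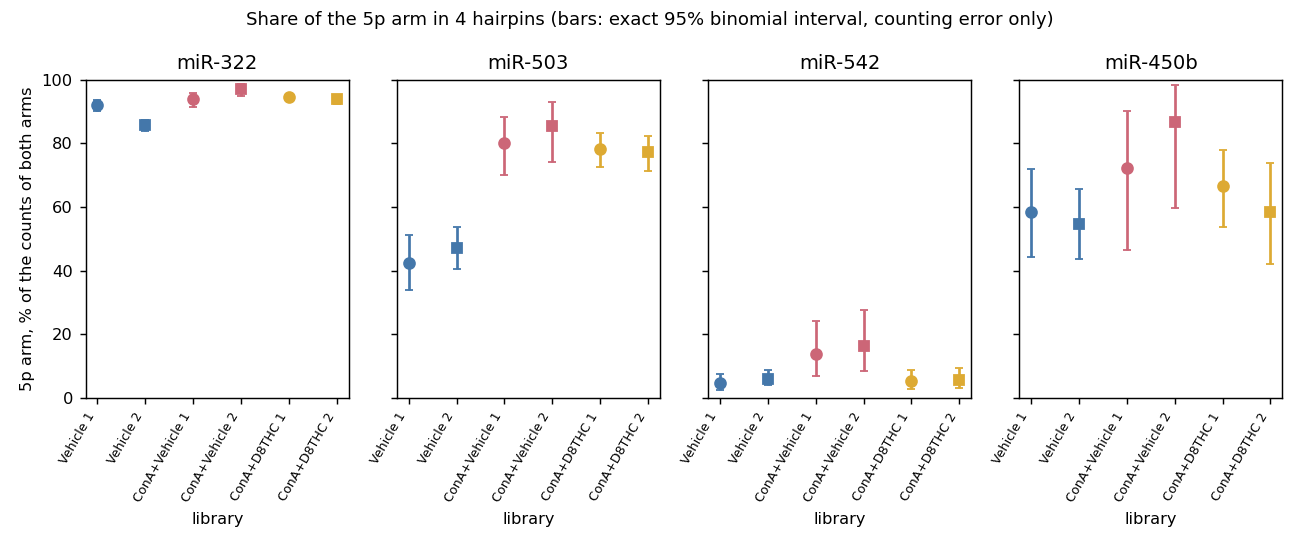
Percentage of the counts of both arms that came from the 5p arm (y axis) in each library (x axis) for 4 hairpins; bars are exact 95% binomial intervals for counting error. The miR-503 panel steps from 42.3% and 47.1% in Vehicle to between 77.2% and 85.5% in the 4 ConA libraries, while the miR-542 panel is highest in the ConA+Vehicle libraries (13.9% and 16.4%).

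The change of arm ratio was tested with edgeR's diffSpliceDGE over all 66 hairpins with both arms tested, a test chosen after the values were seen. Between ConA+Vehicle and Vehicle the 5p-to-3p ratio rose for miR-503 by 5.85-fold (log2 2.55, adjusted p = 0.00307), for miR-542 by 3.25-fold (adjusted p = 0.0230) and for miR-322 by 2.64-fold (adjusted p = 0.0402). The change for miR-450b was of like size and did not pass (log2 1.52, adjusted p = 0.0603). It rests on 5 and 2 counts of the 3p arm in ConA+Vehicle, and was log2 2.30 without ConA+Vehicle replicate 1 and 1.001 without ConA+Vehicle replicate 2. Among all 66 hairpins 12.1% were called with a higher and 3.03% with a lower 5p-to-3p ratio, and the median change was -0.05. With ConA+Vehicle replicate 1 or 2 left out none of the 4 hairpins was called (miR-503 at log2 2.84 and 2.30, adjusted p = 0.0624 and 0.196, in a range of 0.000615 to 0.196). At most 2 were called in any fit that left out 1 library, 1 (miR-503) without ConA+D8THC replicate 2, and limma-voom called miR-503 alone. The call of miR-542 held in 4 of 10 alternatives (adjusted p from 0.0244 to 0.308), and ended without Vehicle replicate 1, either ConA+Vehicle replicate or ConA+D8THC replicate 2. That of miR-322 held in 2 of 10 (0.00797 to 0.344), and among the fits that left out 1 library only in that without Vehicle replicate 1; its log2 change was 0.88 without Vehicle replicate 2 and 2.07 without ConA+Vehicle replicate 1.

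The second comparison, of ConA+D8THC with ConA+Vehicle, asked whether D8THC changed the cluster in mice given ConA. The edgeR test called 0 of the 10 members, DESeq2 0 and limma-voom 0. Over all tested miRNAs 0% were called higher and 3.7% lower. The members' median log2 fold change was 0.57, against -0.04 over all miRNAs. The 2 groups' libraries did not overlap for 7 members higher in ConA+D8THC and 2 lower, where 21.5% and 25.3% of all tested miRNAs were so placed. The endothelial arms of miR-126a were also higher in both ConA+D8THC libraries, at a summed 195490 and 261910 CPM, and were not called, while 4 of the 6 hepatocyte miRNAs fell (162234 to 210951 CPM summed in ConA+Vehicle, 48823 to 70278 in ConA+D8THC). The part of either list in the members' values was not tested.

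The 3 members with the lowest unadjusted p in edgeR were among those that fell with ConA. miR-542-3p was at 246 and 334 CPM in ConA+D8THC, above the 155 and 185 of ConA+Vehicle (log2 0.77 ± 0.29, adjusted p = 0.170). miR-351-5p was at 96.0 and 107 CPM against 57.3 and 46.3 (log2 0.95 ± 0.38, adjusted p = 0.200), and miR-503-3p at 56.8 and 75.4 against 39.9 and 29.8 (log2 0.90 ± 0.38, adjusted p = 0.226). The ConA+Vehicle libraries serve in both this and the first comparison. miR-322-5p was at 1491 and 1558 CPM in ConA+D8THC, the highest libraries of the 6 (log2 0.36 ± 0.20 over ConA+Vehicle, adjusted p = 0.406). miR-503-5p was likewise highest there, at 204 and 255 CPM (log2 0.44 ± 0.30, adjusted p = 0.548).

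The remaining members were not called in this comparison either. miR-322-3p was at 85.7 and 99.6 CPM in ConA+D8THC and miR-450b-3p at 21.7 and 24.2 CPM, both above ConA+Vehicle in each library. The lower pair were miR-542-5p, at 13.4 and 19.9 CPM, and miR-450a-5p, at 4.13 and 7.11 CPM from 4 and 5 counts. miR-450b-5p, at 43.3 and 34.1 CPM, overlapped with ConA+Vehicle. No hairpin of the cluster was called for its arm ratio by edgeR or limma-voom; 2 of the 4 had an unadjusted p under 0.05 in edgeR, as did 6 of all 66 hairpins, and 0% of the 66 were called either way. The larger shift was that of miR-542 (log2 -1.65, adjusted p = 0.176), whose 5p shares in ConA+D8THC lay within the range of the Vehicle libraries. That of miR-503 was small (log2 -0.45, adjusted p = 0.648).

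ConA+D8THC was also compared with Vehicle, to ask what still differed from mice without hepatitis. Here 1 member rose, miR-503-5p, and 8 were not called; 18.5% of all tested miRNAs were called higher and 14.1% lower. The remaining member, miR-450a-5p, was called lower, but it entered the test through Vehicle, the group where it is high, and nothing is read from that call against the background. The median log2 fold change of the members was -0.44, against -0.06 over all. Groups did not overlap for 2 members higher and 6 lower, against 37.7% and 37% of all tested miRNAs. miR-450a-5p is among the 6 lower and enters the median, so neither is a clean comparison with the background. miR-503-5p was 2.56-fold higher than in Vehicle (log2 1.36 ± 0.30, adjusted p = 0.00675) and was called in all 14 alternatives. miR-450a-5p had 32 and 19 counts in the Vehicle libraries and 4 and 5 in ConA+D8THC (fitted log2 -2.38 ± 0.62, adjusted p = 0.0176), too few for its fold to be precise. Without Vehicle replicate 1 its change was log2 -1.59 and was not called, and DESeq2 did not call it (adjusted p from 5.22e-05 to 0.0724).

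miR-351-5p stood close to the threshold in that comparison (log2 -0.94 ± 0.34, adjusted p = 0.0531) and was called lower in 4 of 14 alternatives, with adjusted p-values from 0.00806 to 0.362, among them the fit without Vehicle replicate 1 (log2 -1.26). miR-503-3p had a log2 fold change of -0.74 ± 0.32 (adjusted p = 0.0972) and miR-322-3p of -0.80 ± 0.39 (adjusted p = 0.131), which was called without Vehicle replicate 1 (log2 -1.15, adjusted p from 0.0183 to 0.619). miR-542-3p overlapped with Vehicle (log2 -0.40 ± 0.27), as did miR-450b-5p. miR-450b-3p (log2 -0.48 ± 0.38), miR-542-5p (-0.35 ± 0.42) and miR-322-5p (0.26 ± 0.20) were not called. The arm ratio of miR-503 was higher than in Vehicle by 4.27-fold (log2 2.09, adjusted p = 0.00598), where 13.6% of hairpins were called higher and 10.6% lower. Its call ended with either ConA+D8THC replicate left out and with no filter (adjusted p from 0.00165 to 0.0782). The ratio of miR-322 did not pass (log2 1.06, adjusted p = 0.0523) except without Vehicle replicate 1 (log2 1.46, adjusted p from 0.0151 to 0.424), nor did those of miR-450b (log2 0.39) and miR-542 (log2 0.05).

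Taken by their values over the 6 libraries, the members formed no single pattern. miR-503-3p, miR-351-5p, miR-322-3p and miR-450b-3p went together, with a Pearson r of log2(CPM + 1) from 0.91 to 0.96 in the 6 pairs among them, as a description over 6 libraries that share their scaling. miR-503-5p ran against miR-503-3p (r = -0.57) and miR-450a-5p (r = -0.87). miR-322-5p was only weakly tied to its own opposite arm (r = 0.17). The tested miRNAs outside the cluster whose log2 level was most like the members' sum, among 142 with a mean of at least 100 CPM, were miR-199a-3p (r = 0.91), whose sequence is also that of miR-199b-3p, then miR-99b-5p (0.89), miR-30d-5p (0.88), miR-126a-3p (0.87) and miR-126a-5p (0.84). Of these miR-199a-3p is known from stellate cells and fibroblasts and both miR-126a arms from endothelial cells. The stellate cell and fibroblast list did not move as one between the ConA groups, and none of it was called. In ConA+D8THC miR-199a-3p (log2 0.79) and miR-199a-5p (0.64) were higher than in ConA+Vehicle. miR-143-3p (-0.95) and miR-145a-5p (-1.39) were lower, and miR-214-3p was level (-0.03).

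The other miRNAs with the seed of miR-322-5p are printed to show how much of that seed the libraries held from elsewhere (RefSeq, GRCm38.p6, seed in capitals).
miR-16-5p: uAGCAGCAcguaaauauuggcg
miR-15a-5p: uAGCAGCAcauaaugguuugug
miR-15b-5p: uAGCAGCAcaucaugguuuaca
miR-195a-5p: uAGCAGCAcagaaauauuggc
miR-497a-5p: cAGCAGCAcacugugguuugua
miR-503-5p, printed earlier, is identical to miR-16-5p over its first 7 bases. miR-16-5p, the ubiquitous member, was at 61765 ± 4795 CPM in Vehicle, 89712 ± 7652 with ConA+Vehicle and 91443 ± 2200 with ConA+D8THC, far above miR-322-5p at 1273 ± 63.5, 1185 ± 28.5 and 1525 ± 47.1. Of these 5 miRNAs, 2 fell with ConA and 0 rose: miR-195a-5p by 1.94-fold (adjusted p = 0.0107) and miR-497a-5p by 2.20-fold (adjusted p = 0.00994), which are neighbours on chromosome 11. Against Vehicle both were also lower in ConA+D8THC (adjusted p = 0.0176 and 0.0199). miR-16-5p (log2 0.54), miR-15a-5p (0.11) and miR-15b-5p (0.60) were not called with ConA. Between ConA+D8THC and ConA+Vehicle edgeR called 0 of the 5. miR-195b, with the same seed, and miR-497b, with another, had at most 2 counts in any library.

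The miR-125 family shares the seed of miR-351-5p.
miR-125a-5p: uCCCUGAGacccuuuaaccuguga
miR-125b-5p: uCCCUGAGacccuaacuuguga
Both miRNAs fell with ConA as miR-351-5p did: miR-125a-5p from 3591 ± 610 to 1331 ± 66.9 CPM (2.70-fold, adjusted p = 0.000703) and miR-125b-5p from 5415 ± 620 to 2538 ± 50.2 CPM (2.13-fold, adjusted p = 0.00211). They come from chromosomes 17, 9 and 16, apart from the cluster. In ConA+D8THC they stood at 1985 ± 157 and 3648 ± 430 CPM and were not called against ConA+Vehicle (adjusted p = 0.170 and 0.190). Against Vehicle, ConA+D8THC was lower in miR-125a-5p (1.81-fold, adjusted p = 0.0149), and miR-125b-5p did not pass (adjusted p = 0.0522).

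**Figure D5:**
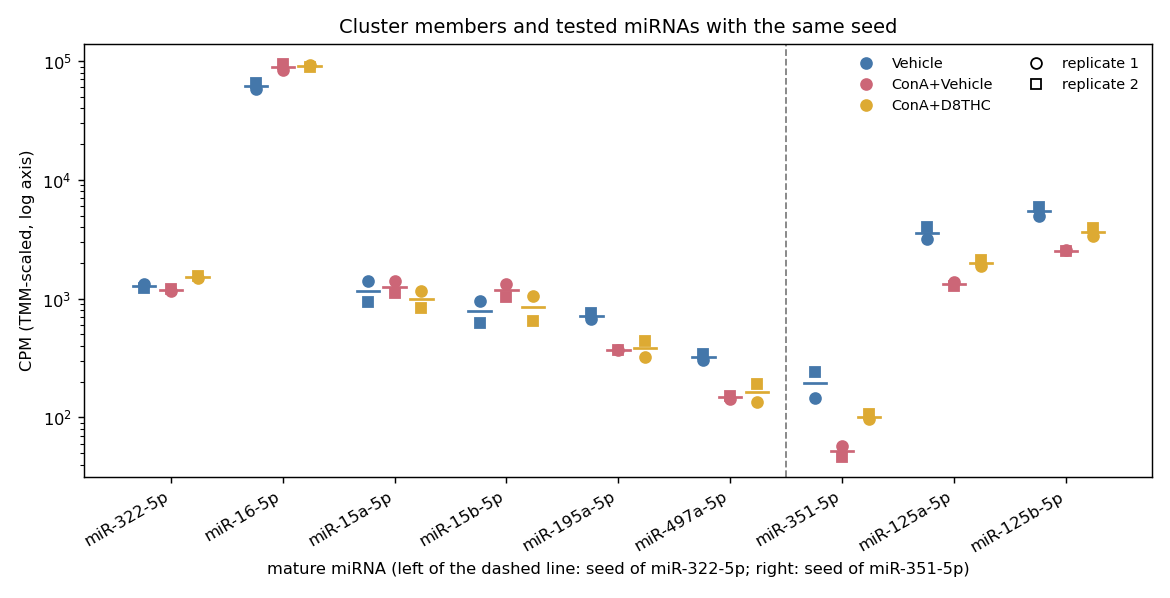
CPM on a log axis in every library for miR-322-5p and the 5 tested miRNAs with its seed (left of the dashed line), and for miR-351-5p and the 2 with its seed (right). The ConA+Vehicle libraries are below Vehicle for miR-195a-5p, miR-497a-5p, miR-351-5p, miR-125a-5p and miR-125b-5p, and above it for miR-16-5p and miR-15b-5p, which were not called.

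Arms of the same hairpins outside the 10 members were near the floor. miR-351-3p had 7, 1 and 4 counts summed over the libraries of Vehicle, ConA+Vehicle and ConA+D8THC, miR-450a-1-3p had 6, 0 and 8, and miR-450a-2-3p had 9, 2 and 2. None was tested. Of 8 miRNAs from imprinted growth loci, listed for comparison because the cluster too is known from growth control, only both arms of miR-335 (from Mest) were tested. miR-335-5p fell with ConA from 1305 ± 311 to 554 ± 133 CPM (2.35-fold, adjusted p = 0.00554), and miR-335-3p was not called (log2 -0.97 ± 0.48). Against Vehicle in ConA+D8THC miR-335-3p fell 2.79-fold (adjusted p = 0.0240), and miR-335-5p was not called (adjusted p = 0.0521). miR-675-5p and miR-675-3p of H19 and miR-483-3p of Igf2 had no count in any library. miR-483-5p had 1 count in all, miR-296-5p 1, 1 and 0 counts in the 3 groups, and miR-296-3p 0 and 2 counts in the Vehicle libraries, 5 and 4 in ConA+Vehicle and 10 and 6 in ConA+D8THC, too few to be tested.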

How the data were processed

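The authors deposited raw counts per mature miRNA, whole numbers without normalization, made with QIAGEN's GeneGlobe portal from QIAseq libraries sequenced on a NextSeq 550, per the labels and the series' design text. The build is mm10, per the submitters' processing notes. The sources used here do not name the aligner, the miRNA annotation, the treatment of reads matching several miRNAs, or whether molecular identifiers were used. Reads are not independent molecules, and intervals cover counting error only. P-values weigh a difference between groups against the spread between libraries of the same group. That spread was pooled over the 3 groups and drawn towards a value shared across miRNAs, since 2 libraries are too few for their own.

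Counts were tested in R 4.3.3 with edgeR 4.0.16: filterByExpr by group (297 miRNAs, which held 99.9% of the counts in every library), TMM factors, one mean per group fitted to the 6 libraries together, robust glmQLFit, glmQLFTest and Benjamini-Hochberg adjustment over the 297. SE was taken as |log2 fold change| divided by the root of F, and is approximate. Arm ratios used diffSpliceDGE. Replicates differed beyond sampling noise (chi-square test of counts), so none was merged. Alternatives used DESeq2 1.42.0, limma 3.58.1 and the settings given in the closing section; figures used Python 3.11.15 and matplotlib 3.10.9. The members and lists were chosen with earlier results of these data known. The naming rule took all 10 members, the detected miRNAs of 4 related lists and the 5 most alike in pattern. Cell type markers are named beside results. Of them miR-199a-5p, miR-511, miR-214-3p, miR-143-3p, miR-145a-5p and miR-122-3p were named after their values were seen. Sequences came from RefSeq by name (10 of 10 members matched). The listed miR-497b was left out of the seed family, since its bases 2 to 8 differ. The tests were checked on simulated counts. Of tested miRNAs given a 2-fold change, 33.6% to 39.3% were recovered over the 3 comparisons, and of those given a 4-fold change 82.7% to 90.8%. Most 2-fold changes would thus be missed. Among calls, 3.43% to 4.63% were of unchanged miRNAs. For arm ratios 5.75% to 7.57% of calls were of unchanged hairpins. The simulated spread followed the fitted trend with level alone, and no miRNA was given more spread than that trend. These rates therefore need not hold for the real libraries.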

Additional observations from a re-analysis of the deposited data

How the results depend on the processing

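Of 538 refits of single members and arm ratios, 482 kept direction and side of the threshold, 36 lost a call, 10 gained one and 10 changed sign. The sign changes were of uncalled values, near 0 in the main fit except for the arm ratio of miR-322 between the ConA groups (log2 -0.34). For miR-450b-5p the log2 fold change of ConA+D8THC against Vehicle was 0.0183 with library totals, 0.0237 without hepatocyte and endothelial markers, 0.0132 with 2 against 2 libraries and -0.26 to 0.11 with 1 library left out. With 1 library left out it was -0.33 to 0.0754 for ConA+Vehicle against Vehicle and -0.15 to 0.32 between the ConA groups. The arm ratio of miR-542 in ConA+D8THC against Vehicle was then -0.18 to 0.26, with -0.0232 without ConA+D8THC replicate 2, and that of miR-322 between the ConA groups -1.001 to 0.0837. Members called in ConA+Vehicle against Vehicle were 6, and 2 to 7 with 1 library left out. In ConA+D8THC against Vehicle they were 2, with DESeq2 1. With the replicate block 4 were called there, 6 in ConA+Vehicle against Vehicle and 1 (miR-542-3p, adjusted p = 0.0499) between the ConA groups; same-numbered libraries share only a number (r of their deviations 0.19, 0.22 and 0.08). Hairpins with a changed arm ratio, 3 in ConA+Vehicle against Vehicle, were 1 with no filter, 1 with limma-voom and 0 to 2 with 1 library left out; in ConA+D8THC against Vehicle, 1 became 0 with no filter and 0 to 2 with 1 library left out. The log2 ratio of the members' summed CPM was -0.41 for ConA+Vehicle against Vehicle, -0.52 with DESeq2 size factors, -0.37 with library totals, -0.45 without hepatocyte and endothelial markers and -0.42 to -0.37 with 1 library left out. Between the ConA groups it was 0.45, 0.55 with DESeq2 size factors, 0.59 without those markers and 0.39 to 0.53 with 1 library left out. For ConA+D8THC against Vehicle it was 0.03, 0.14 with library totals, 0.14 without those markers and 0.0060 to 0.12 with 1 library left out. DESeq2 size factors moved the median of all miRNAs by -0.11 in ConA+Vehicle against Vehicle and 0.10 between the ConA groups, and library totals by 0.11 in ConA+D8THC against Vehicle. The causes were not tested. DESeq2 gave no adjusted p for miR-450a-5p in 2 comparisons. With 3 counts worth 7.48 and 9.93 CPM in ConA+Vehicle, changes of miR-450a-5p, miR-450b-3p and miR-542-5p rest on few counts.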
